A study of Homo sapiens with 2 samples.

Results

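Genes that make, sense and clear prostaglandin E2 were examined in the human lung adenocarcinoma line A549 for what a knockdown of PSPC1 did to their RNA. The 10 genes were chosen by name, as the enzymes of synthesis and breakdown plus 1 receptor: PLA2G4A, PTGS1, PTGS2, PTGES, PTGES2, PTGES3, PTGER4, HPGD, PTGR1 and PTGR2, out of 26536 genes with a value in both libraries. Cells with an shRNA against PSPC1 (shPSPC1) were compared with cells with an shRNA against LacZ (shLacZ), a bacterial gene that human cells lack. Both grew in the same medium with 10% serum and 1% penicillin and streptomycin. PSPC1 is a nuclear RNA-binding protein of paraspeckles. The sources used here do not say how many hairpins were used, whether each culture was a clone or a pool, or how long the hairpin had been present.

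Each group has 1 library, so the differences below carry no p-value and no check against replicates. Levels are FPKM, a count of fragments divided by transcript length and library depth, as the authors' assembler Cufflinks gave them, summed over the transcripts of a gene. A value after ± is the half-width of the 95% interval that Cufflinks deposited with each transcript, carried over to the sum, and covers error within a library only. Ratios are log2 of shPSPC1 over shLacZ after adding 1 FPKM to each, which understates the change of low genes. A gene counted as changed by a rule of size: at least 1 FPKM in the higher library, a ratio of at least 2-fold and intervals that do not overlap. Estimated fragments, the number of fragments behind the FPKM, served as a second measure. For their ratios, fragments were divided by depth and by the effective length of the gene's longest annotated transcript, and 1 FPKM was added. Effective length is length less the mean fragment length. In bulk RNA, fewer cells with a transcript and less of it per cell cannot be told apart.

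Prostaglandins are short-lived lipid signals made from arachidonic acid. A phospholipase frees this fatty acid from membranes, the cyclooxygenases turn it into prostaglandin H2, and terminal synthases make the individual prostaglandins from that. Prostaglandin E2 acts on several receptors at the cell surface, and it is inactivated by oxidation of a hydroxyl group followed by reduction of a double bond. In lung carcinoma cells, cyclooxygenase 2 and the inducible synthase PTGES are commonly made in amounts well above those of normal epithelium, and HPGD opposes them.

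The libraries held about 57100000 fragments for shPSPC1 and 56200000 for shLacZ, as the widths of the deposited intervals imply. PSPC1 itself stood at 17.7 ± 0.858 FPKM in shPSPC1 cells and 31.5 ± 1.25 FPKM in shLacZ cells, or 56.3% of the control level. All 7 markers of epithelium and of A549 cells were at 1 FPKM or more in both libraries (summed level 7920 FPKM in shPSPC1 and 7997 FPKM in shLacZ cells), with 4 (KRT7, KRT8, KRT18 and EPCAM) apart as lower and 2 (AKR1B10 and AKR1C1) apart as higher by both measures. The largest term of the sum, ALDH1A1, has a half-width of 5247 FPKM in shLacZ cells. By contrast, 0 of 5 markers of differentiated alveolar cells reached 1 FPKM (0.102 FPKM in shPSPC1 and 0.076 FPKM in shLacZ cells in all). Of 7 leukocyte markers, CD14 and CD68 passed 1 FPKM. ITGAM, below that level, stood at 0.851 ± 0.192 FPKM in shPSPC1 and 0.434 ± 0.0989 FPKM in shLacZ cells, apart as higher by both measures. CD68 stood at 8.91 ± 0.610 FPKM in shPSPC1 and 15.6 ± 0.810 FPKM in shLacZ cells, the summed list at 11.7 FPKM in shPSPC1 and 18.1 FPKM in shLacZ cells, and the T cell marker CD3E was listed at 0 in both. None of the 6 fibroblast markers (0.701 FPKM in shPSPC1 and 0.923 FPKM in shLacZ cells in all) or the 5 markers of endothelium and platelets (0.885 FPKM in shPSPC1 and 1.75 FPKM in shLacZ cells in all) reached 1 FPKM. The platelet marker PF4 stood at 0.152 ± 0.124 FPKM in shPSPC1 and 0.610 ± 0.250 FPKM in shLacZ cells, apart as lower by both measures. The part of these marker differences in the results below was not tested.

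No member passed the rule of size in either direction by FPKM or by estimated fragments. Over all 11712 genes at 1 FPKM or more in at least 1 library, 2.09% passed it as lower and 1.83% as higher by FPKM, and 1.43% as lower and 1.26% as higher by both measures. Of the 10 members, 8 were at 1 FPKM or more in both libraries. Their intervals lay apart, with the shPSPC1 value the lower, for PTGS2, PTGES, PLA2G4A and HPGD, and for no member with the shPSPC1 value the higher. By fragments PTGES3 joined these 4. At this depth such a gap is common: of the 10958 genes at 1 FPKM or more in both libraries, 24.8% lay apart as lower and 25.4% as higher by FPKM, 23.5% and 23.8% by fragments, and 20.2% and 20.1% by both measures. Interval width depends on level, and among the 3041 genes at 20 FPKM or more in shLacZ cells, where 7 members fall, the shares by both measures were 29.3% as lower and 24.6% as higher. The median log2 ratio of the 10 members, PTGS1 and PTGER4 included, was -0.11 by FPKM and -0.09 by fragments. Over the 10958 genes at 1 FPKM or more in both libraries it was 0.01 by either measure.

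**Figure D1:**
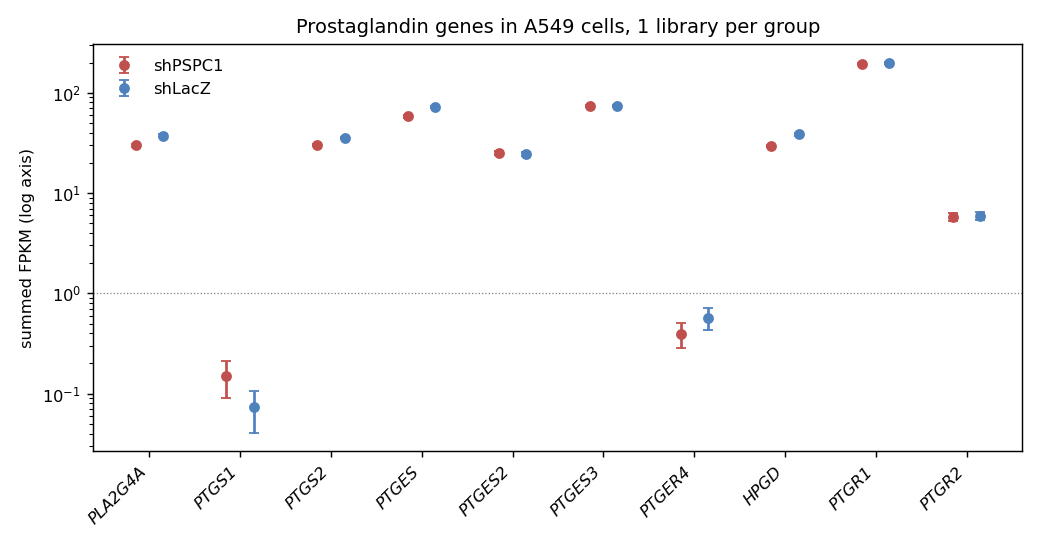
Level of each of the 10 genes in FPKM on a log axis, with the shPSPC1 library left of the shLacZ library in each pair and bars for the 95% interval from Cufflinks; the dotted line marks 1 FPKM. PTGR1 stands highest, near 192 FPKM in shPSPC1 and 196 FPKM in shLacZ cells, and PTGS1 and PTGER4 lie under the line in both.

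The first step belongs to PLA2G4A, the cytosolic phospholipase A2 that frees arachidonic acid in response to calcium (chromosome 1, 186798032 to 186958113, plus strand). PLA2G4A stood at 30.0 ± 1.11 FPKM in shPSPC1 cells and 37.4 ± 1.21 FPKM in shLacZ cells. The shPSPC1 value was 80.3% of the control value, a log2 ratio of -0.31 (interval -0.41 to -0.21). By fragments, 4244 in shPSPC1 against 5562 in shLacZ cells, the ratio was -0.40. Among genes at 1 FPKM or more in both libraries, the ratio lay at percentile 13.4 by FPKM and 7.80 by fragments. This makes it lower than most genes without being among the outermost 5%, which begin at -0.56 by FPKM and -0.51 by fragments.

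The cyclooxygenases carry out the committed step. PTGS2 encodes cyclooxygenase 2, the form induced by cytokines and growth factors (chromosome 1, 186640944 to 186649559, minus strand). PTGS2 stood at 29.9 ± 0.828 FPKM in shPSPC1 cells and 35.4 ± 0.879 FPKM in shLacZ cells, a log2 ratio of -0.23 (-0.31 to -0.16), or 84.7% of control. The direction turned when only the annotated transcript was counted, which gave a ratio of 0.21. PTGS1, the form present in most tissues at a steady level, was near the floor of detection (chromosome 9, 125132809 to 125157982, plus strand). It was estimated at 0.1501 ± 0.0596 FPKM from 37.0 fragments in shPSPC1 cells and 0.0737 ± 0.0330 FPKM from about 20 fragments in shLacZ cells. These intervals overlap, so a difference in PTGS1 was not detectable at this depth. Nearly all cyclooxygenase RNA of both libraries was therefore PTGS2, whose FPKM was 199.5 times that of PTGS1 in shPSPC1 and 479.6 times in shLacZ cells, a pair of ratios that rests on those few PTGS1 fragments.

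Of the synthases that turn prostaglandin H2 into prostaglandin E2, PTGES is the inducible, glutathione-dependent membrane enzyme that works closely with cyclooxygenase 2 (chromosome 9, 132500615 to 132515344, minus strand, 3 exons). PTGES stood at 58.1 ± 1.58 FPKM in shPSPC1 cells and 71.9 ± 1.77 FPKM in shLacZ cells. The ratio was -0.30 (-0.38 to -0.23) by both measures, 80.8% of control. By FPKM it lay at percentile 13.7 of genes at 1 FPKM or more in both libraries. PTGES2, a second membrane synthase (chromosome 9, 130882972 to 130890741, minus strand), stood at 24.9 ± 1.09 FPKM in shPSPC1 and 24.5 ± 0.896 FPKM in shLacZ cells. Its intervals overlap, with a ratio of 0.02 (-0.09 to 0.13) by FPKM and -0.09 (-0.19 to 0.02) by fragments. PTGES3 encodes p23, a co-chaperone of HSP90 that also has cytosolic synthase activity (chromosome 12, 57057125 to 57082078, minus strand). PTGES3 stood at 73.3 ± 2.04 FPKM in shPSPC1 and 74.3 ± 1.74 FPKM in shLacZ cells, a ratio of -0.02 (-0.09 to 0.05). By fragments, 6934 in shPSPC1 and 7332 in shLacZ cells, its intervals lay apart at -0.10 (-0.17 to -0.03). By the summed level the inducible synthase differed by the most. With annotated transcripts only, PTGES3 passed it at -0.39, and with the most abundant transcript alone PTGES3 stood at -0.39 and PTGES2 at -0.33. All 3 together amounted to 156 ± 2.80 FPKM in shPSPC1 and 171 ± 2.64 FPKM in shLacZ cells.

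The receptor PTGER4 (EP4), which raises cyclic AMP when prostaglandin E2 binds, was under 1 FPKM (chromosome 5, 40680032 to 40693837, plus strand). It was estimated at 0.394 ± 0.108 FPKM from 79.2 fragments in shPSPC1 cells and 0.570 ± 0.141 FPKM from 92.0 fragments in shLacZ cells, and the intervals overlap.

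HPGD begins the breakdown: this dehydrogenase oxidises the hydroxyl group that prostaglandins need for binding their receptors (chromosome 4, 175411328 to 175444049, minus strand). HPGD stood at 29.5 ± 0.850 FPKM in shPSPC1 cells and 38.3 ± 0.983 FPKM in shLacZ cells. Among the 8 members at 1 FPKM or more in both libraries this was the largest difference by summed FPKM, 77.0% of control. The log2 ratio was -0.37 (-0.44 to -0.29), at percentile 10.7 of all genes at that level. PTGR1, a reductase that acts on the keto products of HPGD and also on leukotriene B4 and lipid aldehydes, was the most abundant member (chromosome 9, 114312002 to 114362135, minus strand). PTGR1 stood at 192 ± 4.17 FPKM in shPSPC1 and 196 ± 4.13 FPKM in shLacZ cells, a ratio of -0.03 (-0.09 to 0.03). PTGR2, a related reductase of keto-prostaglandins (chromosome 14, 74318534 to 74352168, plus strand), stood at 5.75 ± 0.513 FPKM in shPSPC1 and 5.94 ± 0.528 FPKM in shLacZ cells, a ratio of -0.04 (-0.26 to 0.18). The intervals of both reductases overlap between the libraries. PTGR2 rests on 786 fragments in shPSPC1 and 795 in shLacZ cells, the fewest of any member above 1 FPKM.

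**Figure D2:**
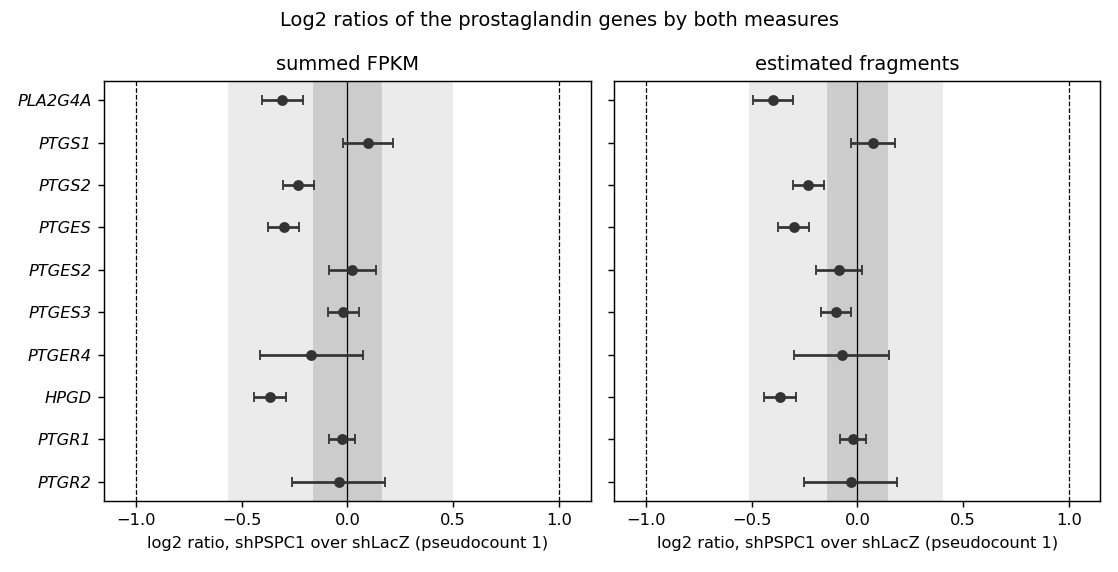
Log2 ratio of shPSPC1 over shLacZ for each member by summed FPKM and by estimated fragments, with bars for the interval of the ratio, shading for the middle 50% and 90% of genes at 1 FPKM or more in both libraries, and dashed lines at the 2-fold limit. HPGD, PLA2G4A, PTGES and PTGS2 lie between -0.40 and -0.23, below the middle 50% of genes and inside the middle 90%.

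Summed by role, the shPSPC1 level was 85.0% of control for the 2 cyclooxygenases, 91.6% for the 3 prostaglandin E synthases and 94.7% for the 3 breakdown enzymes, where the abundant PTGR1 makes up most of the sum. The order of levels within a library was PTGR1, then PTGES3, PTGES, a group of 3 (PLA2G4A, PTGS2, HPGD), PTGES2, PTGR2, PTGER4 and PTGS1 in shPSPC1 cells. PLA2G4A, PTGS2 and HPGD do not differ from their neighbours in that group beyond their intervals, and the other neighbours do. In shLacZ cells the order was the same except that HPGD led the group of 3, and there the intervals of PTGES3 and PTGES also overlap.

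The stretch of 250 bases before an annotated start is shown for the 4 genes whose intervals lay apart by both measures, since these are the members that differ and their starts can be compared. The windows are from RefSeq on GRCh38.p14, a different build from the coordinates above, and were found for all 10 members. They were searched on both strands for 6 motifs. The first was the TATA box, as TATAAA. The half-site of cyclic AMP response elements was searched as TGACG. The GC box was searched as GGGCGG, and the CCAAT box by the letters of its name. A loose form of the NF-kB site was any GGG with a CC that follows after 5 further bases. The core of the antioxidant response element was searched as TGACNNNGC. Capitals mark matches, and overlapping matches run together. Each line is read 5′ to 3′ along the gene and ends at the base before the start.
PTGS2 chr1:186680424-186680673, minus strand: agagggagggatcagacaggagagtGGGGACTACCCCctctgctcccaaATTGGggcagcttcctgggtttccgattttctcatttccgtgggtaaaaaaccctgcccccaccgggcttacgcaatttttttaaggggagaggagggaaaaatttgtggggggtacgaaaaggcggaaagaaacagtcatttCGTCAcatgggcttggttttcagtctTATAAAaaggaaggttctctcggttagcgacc
PTGES chr9:129753043-129753292, minus strand: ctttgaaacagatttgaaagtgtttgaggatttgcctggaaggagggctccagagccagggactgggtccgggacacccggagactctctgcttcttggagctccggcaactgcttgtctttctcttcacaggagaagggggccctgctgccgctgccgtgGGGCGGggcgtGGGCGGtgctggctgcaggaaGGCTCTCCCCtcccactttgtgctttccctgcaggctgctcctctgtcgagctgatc
PLA2G4A chr1:186828699-186828948, plus strand: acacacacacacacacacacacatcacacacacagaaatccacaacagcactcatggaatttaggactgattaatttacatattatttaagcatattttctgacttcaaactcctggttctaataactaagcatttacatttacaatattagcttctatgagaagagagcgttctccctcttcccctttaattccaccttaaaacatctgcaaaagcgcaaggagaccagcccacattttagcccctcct
HPGD chr4:174522489-174522738, minus strand: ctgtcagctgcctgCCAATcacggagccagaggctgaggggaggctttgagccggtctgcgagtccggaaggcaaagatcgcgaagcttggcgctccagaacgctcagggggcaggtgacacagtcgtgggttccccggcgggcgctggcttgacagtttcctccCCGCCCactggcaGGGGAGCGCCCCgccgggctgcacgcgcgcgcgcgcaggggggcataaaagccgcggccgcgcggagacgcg

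The 4 windows printed have no searched motif in common, because the PLA2G4A window holds none. The PTGS2, PTGES and HPGD windows each hold the loose NF-kB form, which occurs in 54.4% of promoter windows. The PTGS2 window has a TATAAA 32 bases before the start, a TGACG on the other strand 58 bases before it, a CCAAT on the other strand 201 bases before it and 3 overlapping loose NF-kB matches from 225 bases before it. The PTGES window has GGGCGG at 89 and 78 bases and a loose NF-kB match at 57 bases before the start, and no TATAAA. The HPGD window has a CCAAT at 236 bases, a GC box on the other strand at 85 bases and 3 overlapping loose NF-kB matches from 72 bases before the start. A second HPGD window in the same table (chromosome 4, 174522894 to 174523143, not printed) holds a TGACG 77 bases before its start and none of the other motifs. The HPGD forms listed in these data start within a few bases of one another, and the windows do not. Which window precedes the start of the measured HPGD form was not checked. Along the gene, the printed HPGD window lies downstream of the unprinted one. It may therefore fall within the first exon of the measured form, and its matches may not lie upstream of that form. The PLA2G4A window holds none of the 6 motifs and is the poorest in G and C, at 38.8% against 50.4% for PTGS2, 61.2% for PTGES and 70.8% for HPGD. Among 35116 promoter windows of the same length, TATAAA occurs in 10.7%, TGACG in 21.2%, GGGCGG in 42.6%, CCAAT in 32.0%, the loose NF-kB form in 54.4% and TGACNNNGC in 10.9%. A match describes the letters only.

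The forms listed for a gene differed between the libraries for several members. For every gene below, the intervals of single forms do not cover how forms were assembled or how reads were divided among them. The share of all genes with such differences was not computed. For PTGS2, the larger part was an assembled transcript of 10 exons that has the same introns as the annotated one and ends 97 bases short of its 3′ end. That shorter form stood at 21.8 FPKM (21.1 to 22.5) in shPSPC1 and 28.5 FPKM (27.7 to 29.2) in shLacZ cells, which was 72.8% of the gene in shPSPC1 and 80.5% in shLacZ cells. The full-length annotated form went the other way, at 8.16 FPKM (7.68 to 8.63) in shPSPC1 and 6.90 FPKM (6.44 to 7.35) in shLacZ cells. These forms differ only at their ends, so few reads separate them, and the intervals do not cover that choice. The 3′ untranslated part of PTGS2 mRNA is known for elements that control its decay, and a link to these forms was not tested.

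PLA2G4A showed a structure that was assembled in one library only. The annotated form of 18 exons stood at 18.3 FPKM (17.5 to 19.1) in shPSPC1 and 23.9 FPKM (23.0 to 24.8) in shLacZ cells. In shPSPC1 cells the rest, 11.7 FPKM (10.9 to 12.5) or 39.1% of the gene, was an assembled transcript of 16 exons. Its first exon of 33 bases lies 41812 bases after the annotated start, and it is joined to the fourth annotated exon by an unannotated intron of 22266 bases (186839877 to 186862142), so the first 3 annotated introns are missing. In shLacZ cells the rest, 13.5 FPKM (12.7 to 14.3) or 36.0%, was an assembled transcript with all the annotated introns and a start 117 bases before the annotated one. Counting only intron chains present in both files gave a ratio of -0.99 in place of -0.31. The size of the PLA2G4A difference therefore depends on whether the shorter form is counted.

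For the synthases, PTGES3 in shPSPC1 cells was split between the annotated form of 8 exons at 56.6 FPKM (55.0 to 58.2) and an assembled form of 3 exons at 16.7 FPKM (15.5 to 17.9), which was 22.8% of the gene. The short form lies at 57057428 to 57066085 and joins the last annotated exon to the third exon before it through an unannotated intron of 5776 bases. In shLacZ cells the annotated form alone was listed, at 74.3 FPKM. PTGES2 likewise had a second form in one library. The form of 7 exons stood at 19.2 FPKM (18.4 to 20.1) in shPSPC1 and 24.5 FPKM (23.6 to 25.4) in shLacZ cells. An annotated form of 8 exons, with a first exon of 215 bases in place of 1024 and an extra exon of 93 bases (130887058 to 130887150), stood at 5.66 FPKM (4.97 to 6.35) in shPSPC1 cells and was listed at 0 in shLacZ cells. The sums of both genes were close between the libraries, although the annotated form that both libraries share was lower in shPSPC1 cells in each case.

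**Figure D3:**
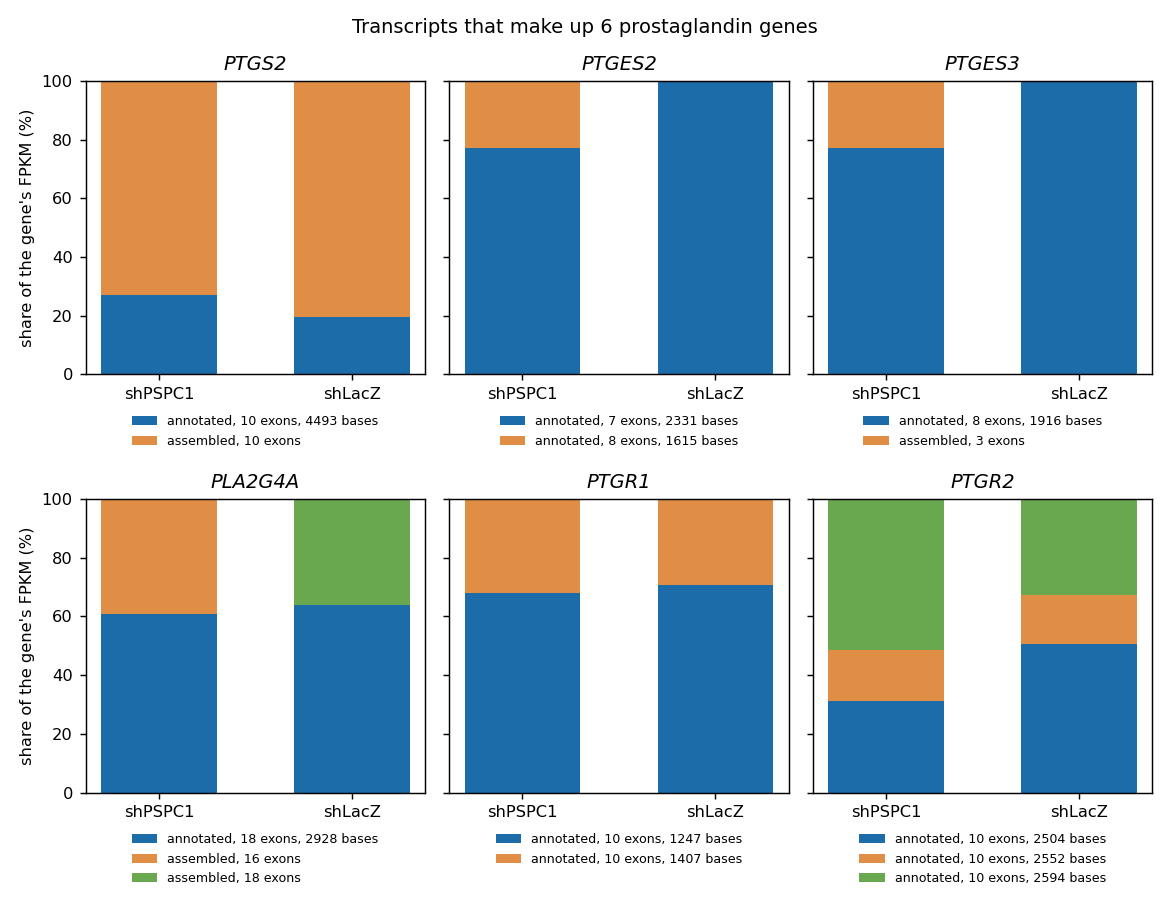
Share of each gene's FPKM, in percent, held by each transcript of 6 members, with the shPSPC1 bar left of the shLacZ bar and colours for annotated and assembled forms. PTGES2 and PTGES3 show a second form of 22.8% in shPSPC1 cells that is absent from the shLacZ bar, and PLA2G4A has a different second form in each library.

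**Figure D4:**
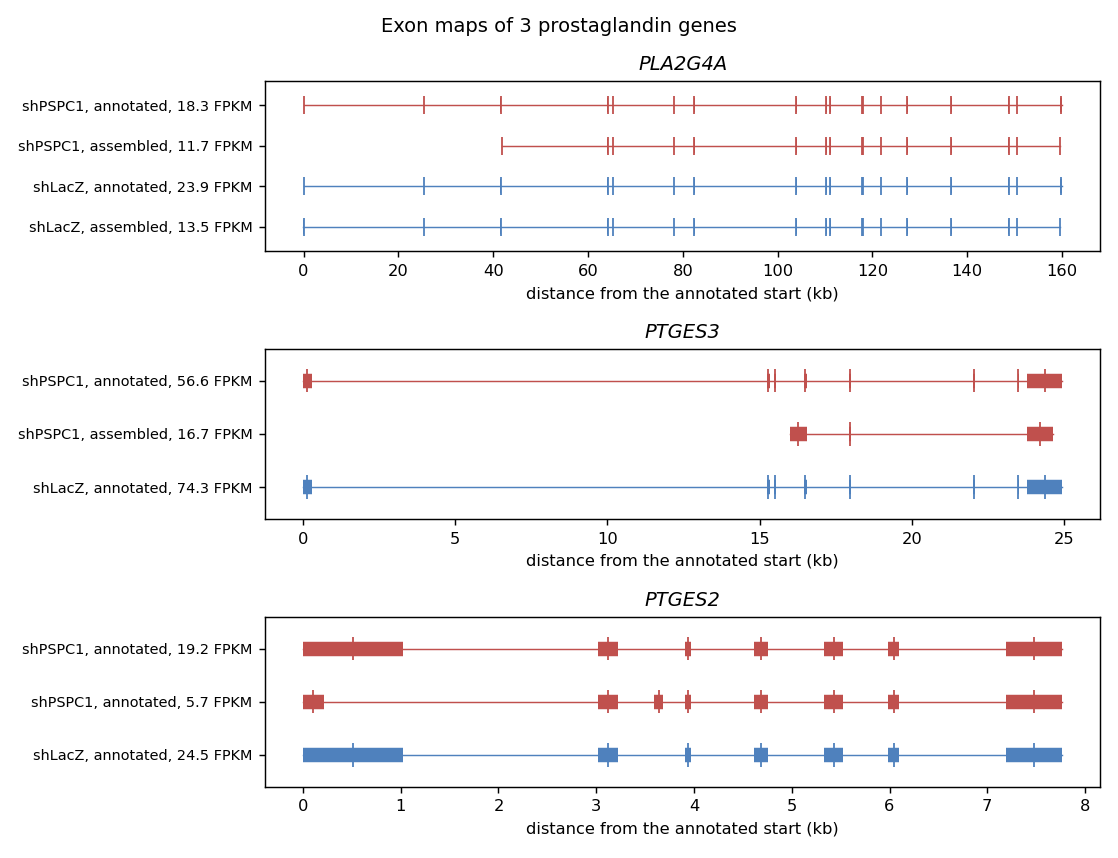
Exons of the listed forms of PLA2G4A, PTGES3 and PTGES2 as boxes on a line, in kilobases from the annotated start of the gene in the direction of transcription, with ticks at exon centres. The form of PLA2G4A assembled in shPSPC1 cells starts 41812 bases in, and the short form of PTGES3 keeps 3 blocks at the 3′ end.

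The reductases differed in their first exons. PTGR1 has 2 expressed annotated forms, of 1247 and 1407 bases, that differ in the first exon. The shorter stood at 131 FPKM (127 to 134), 68.0% of the gene, in shPSPC1 and 138 FPKM (135 to 142), 70.7%, in shLacZ cells. The longer stood at 61.5 FPKM (59.1 to 63.9) in shPSPC1 and 57.5 FPKM (55.2 to 59.8) in shLacZ cells, and those intervals overlap, while those of the shorter form lie just apart. PTGR2 has 3 annotated forms with alternative first exons, and their order turned between the libraries while the sum did not move beyond its interval. The form of 2504 bases stood at 1.79 FPKM (1.5 to 2.09), 31.2% of the gene, in shPSPC1 and 3.01 FPKM (2.64 to 3.38), 50.6%, in shLacZ cells. The form of 2594 bases stood at 2.96 FPKM (2.61 to 3.31), 51.5%, in shPSPC1 and 1.93 FPKM (1.63 to 2.24), 32.5%, in shLacZ cells. The form of 2552 bases held 17.3% in shPSPC1 and 16.8% in shLacZ cells. Forms that share all but a first exon are separated by few reads, and the intervals do not cover that choice. PTGES and HPGD had a single form above 0 in both libraries, so no reads were divided among forms within their sums. An assembled single-exon piece without a strand lies over HPGD in shLacZ cells only. It is given below and is outside the HPGD sum, and its part in the HPGD ratio was not tested. HPGD has 6 annotated forms, and the one above 0 has 7 exons and 3027 bases.

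The other genes of eicosanoid metabolism were taken as 6 lists with 66 measured genes, of which 23 were at 1 FPKM or more in both libraries and 17 were listed at 0 in both. None of the 66 passed the rule of size in either direction. Among the 23, intervals lay apart by both measures as lower for 8 and as higher for 4, and the median ratio was -0.08. Over all 10958 genes at that level, 20.2% lay apart as lower and 20.1% as higher by both measures, and the median ratio was 0.01. The counts per list below are to be read beside these shares.

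Among 20 genes of arachidonic acid release and reacylation, 8 were expressed at that level, with 3 apart as lower and 1 as higher. ANXA1, an inhibitor of phospholipase activity, was the most abundant at 502 ± 5.34 FPKM in shPSPC1 and 645 ± 6.09 FPKM in shLacZ cells (ratio -0.36). ACSL4, which activates arachidonic acid for reesterification, stood at 20.8 ± 0.691 FPKM in shPSPC1 and 33.6 ± 1.04 FPKM in shLacZ cells, with a ratio of -0.67 by FPKM and -0.23 by fragments. MBOAT7, which puts arachidonic acid back into phosphatidylinositol, stood at 22.5 ± 0.804 FPKM in shPSPC1 and 33.4 ± 1.24 FPKM in shLacZ cells, with ratios of -0.55 by FPKM and -0.28 by fragments. The log2 ratios of ACSL4 and MBOAT7 thus depend on the measure, and both were smaller in size by fragments than by FPKM. With annotated transcripts only, the ratio of ACSL4 was -1.53 and that of MBOAT7 turned to 1.5. MGLL, which frees arachidonic acid from an endocannabinoid, was the one apart as higher, at 18.3 ± 0.649 FPKM in shPSPC1 and 15.6 ± 0.604 FPKM in shLacZ cells (ratio 0.22). The phospholipase PLAAT3 stood at 25.6 ± 1.58 FPKM in shPSPC1 and 22.6 ± 1.37 FPKM in shLacZ cells, apart by FPKM alone (ratio 0.17, and 0.03 by fragments). The acyltransferase LPCAT3 stood at 10.9 FPKM in shPSPC1 and 11.7 FPKM in shLacZ cells.

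Of 9 other prostanoid synthases, 6 were expressed. AKR1C3, which makes prostaglandin F products, was the highest at 1328 ± 9.37 FPKM in shPSPC1 and 984 ± 8.12 FPKM in shLacZ cells (ratio 0.43). It has near-identical neighbours in the AKR1C family among which reads may be divided, so this value is uncertain. AKR1B1, an aldose reductase with prostaglandin F synthase activity, stood at 440.5 ± 5.0 FPKM in shPSPC1 and 541 ± 5.58 FPKM in shLacZ cells (ratio -0.29). The carbonyl reductase CBR1 stood at 80.0 FPKM in shPSPC1 and 83.3 FPKM in shLacZ cells. Of the 9 genes on the receptor list, PTGFRN alone reached 1 FPKM, at 9.32 ± 0.330 FPKM in shPSPC1 and 11.2 ± 0.479 FPKM in shLacZ cells (ratio -0.24). PTGFRN is a membrane protein that inhibits ligand binding by the prostaglandin F receptor and is not itself a receptor. With PTGER4 also under 1 FPKM, no prostanoid receptor reached that level in either library. The exporter ABCC4, which carries prostaglandin E2 out of cells, stood at 13.3 ± 0.483 FPKM in shPSPC1 and 16.6 ± 0.456 FPKM in shLacZ cells (ratio -0.30).

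In the lipoxygenase branch, LTA4H, which makes leukotriene B4, stood at 44.0 FPKM in shPSPC1 and 45.5 FPKM in shLacZ cells, and the transpeptidase GGT1, which has near-identical copies, at 21.4 ± 1.02 FPKM in shPSPC1 and 24.6 ± 1.10 FPKM in shLacZ cells. In the epoxygenase branch, the hydrolase EPHX1 stood at 28.1 FPKM in shPSPC1 and 28.9 FPKM in shLacZ cells. The GGT1 intervals lay apart by both measures, and those of LTA4H and EPHX1 overlap. These branches draw on the same arachidonic acid.

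**Figure D5:**
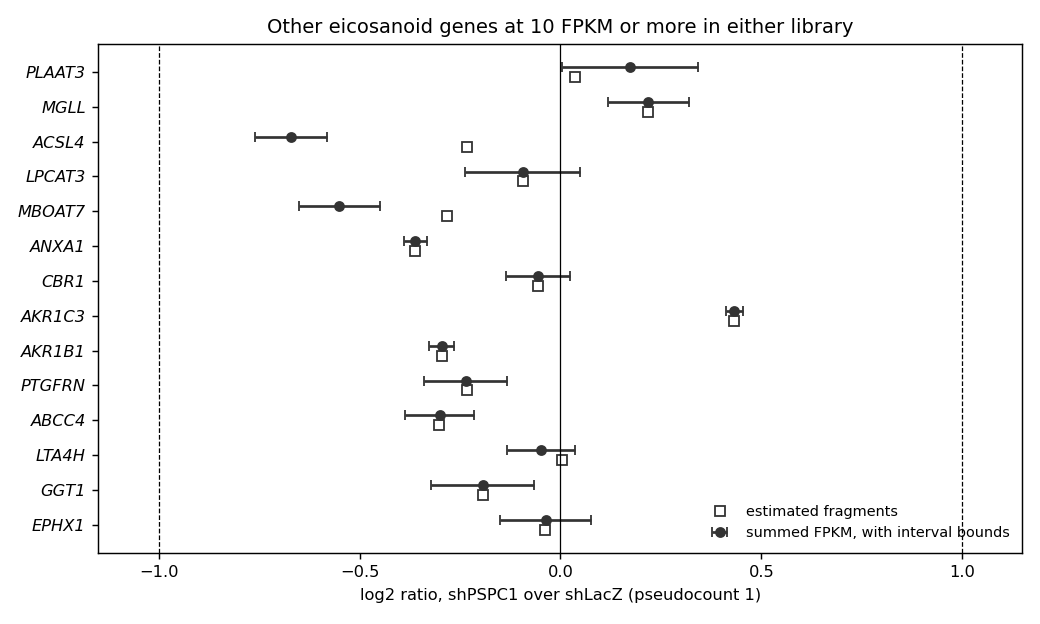
Log2 ratio of shPSPC1 over shLacZ by summed FPKM (points, with bars for the interval) and by estimated fragments (squares) for the 14 other eicosanoid genes at 10 FPKM or more in either library. AKR1C3 lies highest at 0.43, ACSL4 lowest at -0.67 by FPKM, and the measures part most for ACSL4 and MBOAT7.

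Assembled single-exon pieces without a strand were left out of every sum above, and some lie on or near members. Over HPGD, the shLacZ file holds a piece of 22369 bases (175410085 to 175432453) at 1.25 FPKM (1.19 to 1.32). Within 5000 bases of HPGD such pieces came to 0.560 fragments per 1000000 (0.362 to 0.758) in shPSPC1 and 27.8 fragments per 1000000 (26.3 to 29.2) in shLacZ cells. Upstream of PTGS2, the shLacZ file holds pieces of 2920 and 3769 bases that begin 180 bases before its annotated start, with 5.98 fragments per 1000000 (5.33 to 6.63) in all, and the shPSPC1 file holds none. The pieces near PTGES came to 0.245 fragments per 1000000 (0.114 to 0.376) in shPSPC1 and 0.178 (0.0654 to 0.290) in shLacZ cells, with intervals that overlap. Near PLA2G4A no piece was assembled in shPSPC1 cells, against 0.214 fragments per 1000000 (0.0902 to 0.337) in shLacZ cells. For PTGR1, whose level did not differ beyond its interval, the pieces came to 58.0 fragments per 1000000 (56.0 to 60.0) in shPSPC1 and 54.6 fragments per 1000000 (52.6 to 56.6) in shLacZ cells.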

How the data were processed

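RNA of 2 libraries, 1 shPSPC1 and 1 shLacZ, was extracted with Trizol and sequenced, per the labels' protocols. Software named in the submitters' processing notes comprises TopHat2 2.0.7, Cufflinks 2.1.1 and CASAVA 1.8.2. The authors deposited 1 transcript file per library. It gives each transcript FPKM with the bounds of a 95% interval, and the deposited Cufflinks score was not used. Strand handling, poly(A) selection and genome build are not given in the sources used here. Unplaced scaffolds carry GRCh37 names, and coordinates are as deposited.

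Annotated transcripts were grouped into genes by accession, with symbols from a RefSeq table. Assembled transcripts with a strand joined the gene with which they shared an intron, and those without a strand were kept apart. FPKM were summed per gene, with half-widths added as squares. Estimated fragments are FPKM times effective length and depth. Depth came from transcripts alone at their locus, whose intervals gave whole fragments within 0.02 for 94.41% of 29189 in shPSPC1 and 94.29% of 23900 in shLacZ. An example of 100 fragments has a half-width of 20%. All scripts ran in Python 3.11.15 with numpy 2.4.6 and were tested on simulated data. Named genes were all members, PSPC1, and genes of the pathway lists past the rule of size or at 10 FPKM or more. The members and lists were chosen with earlier results of these data known. Alternatives covered the pseudocount, the minimum level, the fold, which transcripts count to a gene, the measure and the scaling. No duplicate check applies with 1 library per group.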

Additional observations from a re-analysis of the deposited data

Results flagged for a closer look

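Beyond the 3′ end of PTGES2 lies a single assembled piece of 1090 bases without a strand (chromosome 9, 130878218 to 130879307), which begins 3664 bases after the end of the gene. It held 0.175 fragments per 1000000 (0.0643 to 0.286) in shPSPC1 cells and no piece was assembled there in shLacZ cells. It drew attention as RNA outside the summed gene values for which a piece was assembled in the shPSPC1 library only. Where no piece was assembled, no level was measured, so a lower level in shLacZ cells was not shown. Pieces without a strand were more numerous in the shPSPC1 file as a whole, at 36255 against 29208 in the shLacZ file. At 0.189 FPKM the piece is far below PTGES2 itself, and which gene it belongs to was not tested.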

How the results depend on the processing

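No paired analysis was possible because each group has 1 library, and for the same reason no replicate could be left out. The count of members past the rule of size was 0 under all 12 alternatives. The genome-wide counts of 214 higher and 245 lower genes became 76 and 90 with a pseudocount of 5, 117 and 152 with a minimum of 5 FPKM, 530 and 657 at 1.5-fold, 538 and 535 with annotated transcripts only, and 424 and 398 with intron chains present in both files. Pathway genes past the rule, 0 at first, became 1 with a pseudocount of 0.1 (ALOX5AP), 2 at 1.5-fold (ACSL4 and ALOX5AP), 2 with annotated transcripts only (ACSL4 at -1.53, MBOAT7 at 1.5) and 1 with shared intron chains (MBOAT7). MBOAT7 thus turns direction when assembled forms are left out, and these names were chosen after their values were seen. The member median of -0.11 was -0.03 with exon overlap, -0.04 with a pseudocount of 5, -0.05 with scaling outside the mitochondrial chromosome and -0.32 with the most abundant transcript alone. In that last setting 7 in place of 4 members lay apart as lower, since it drops the second forms of PTGES2, PTGES3 and PTGR1. The share of all genes apart as lower was not computed for that setting, so the count of 7 has no background to be read against. The intervals-apart alternatives were added after seeing the data. Scaling to the summed FPKM outside the mitochondrial chromosome gave ratios of -0.14 for PTGS2, -0.21 for PTGES and PLA2G4A, -0.27 for HPGD and 0.07 for PTGES3 and PTGR1 and 0.04 for PTGR2, which had been below 0. That scaling moved genes in general upward. The median ratio over genes at 1 FPKM or more in both libraries went from 0.01 to 0.09. The smaller member ratios and their turns of direction are therefore not specific to the members. Direction also turned for PTGER4 with exon overlap (0.09), for PTGS1 with annotated transcripts only and with shared intron chains (-0.10 in both), for PTGS2 with annotated transcripts only (0.21), and for PTGES2 by fragments (-0.09) and with its most abundant transcript (-0.33). Depth limits PTGS1 and PTGER4.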

Other observations

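The pathway lists hold a further 11 genes between 1 and 10 FPKM in at least 1 library, named here after their values were seen. In the epoxygenase branch, the soluble epoxide hydrolase EPHX2 stood at 4.85 ± 0.377 FPKM in shPSPC1 and 3.15 ± 0.304 FPKM in shLacZ cells, and the omega-hydroxylase CYP4F3 at 3.71 ± 0.387 FPKM in shPSPC1 and 2.36 ± 0.258 FPKM in shLacZ cells. Both lay apart as higher by both measures, with a log2 ratio of 0.49 each. In the lipoxygenase branch, ALOX5AP, the partner protein of the enzyme ALOX5, stood at 0.567 ± 0.231 FPKM in shPSPC1 and 1.36 ± 0.399 FPKM in shLacZ cells. ALOX5AP lay apart as lower by both measures. ALOX5 stood at 1.36 ± 0.394 FPKM in shPSPC1 and 1.92 ± 0.295 FPKM in shLacZ cells, apart as lower by fragments alone. PTGR3, a further reductase of keto-prostaglandins, stood at 1.17 ± 0.154 FPKM in shPSPC1 and 1.98 ± 0.193 FPKM in shLacZ cells and lay apart as lower by both measures. The phospholipase PLA2G4C stood at 0.964 ± 0.203 FPKM in shPSPC1 and 1.56 ± 0.274 FPKM in shLacZ cells, also apart as lower by both measures. The levels of PLA2G12A, PLA2G15, CBR3, PRXL2B and the thromboxane synthase TBXAS1 lay between 1.97 and 6.09 FPKM, and the FPKM intervals of each overlap between the libraries, while by fragments PLA2G12A lay apart as higher.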
